A study of Mus musculus with 11 samples.

Results

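The circadian clock genes Arntl, Clock, Npas2, Per1, Per2, Per3, Cry1, Nr1d1, Dbp and Tef were read in whole livers after short induction of YAP. They were chosen by symbol, and all 10 were found among the 20893 genes of the table. Total RNA of 11 livers was sequenced, from 4 control livers, 4 livers after 3 days and 3 livers after 7 days of doxycycline food. All mice were C57BL/6 carrying ROSA26-rtTA-IRES-EGFP, in which the doxycycline-dependent activator rtTA is released by Alb-CRE, so that induction is driven in cells with an active albumin promoter. The 3-day and 7-day mice also carried tetYAP, a doxycycline-responsive transgene for a constitutively active YAP, the effector of the Hippo pathway. The controls are labelled WT and listed with doxycycline food for 7 days, so that no control was listed for 3 days of the diet. The ages of the mice and the hour at which each liver was taken are not given in the sources used here. Levels are eRPKM, in which exon reads are divided by exon length in kilobases and, by the authors, by the size of the library.

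The molecular clock is a loop of transcription and repression that runs in almost every cell of the liver. Arntl (Bmal1) pairs with Clock or its paralog Npas2, and the pairs bind the E-box in the promoters of the Per, Cry and Nr1d1 genes and of Dbp. The PER and CRY proteins accumulate and block the Arntl-containing pairs, NR1D1 represses Arntl and Npas2 through ROR elements, and DBP and TEF act on D-boxes. In mouse liver Arntl and Npas2 transcripts are known to peak at the opposite time of day to those of Dbp and Per3, and Nr1d1 and Dbp are among the transcripts with the widest daily swing.

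The promoters show these letters in part of the members. RefSeq promoter windows on GRCm38.p6, from 250 bases before to 50 bases after a transcript start, were matched for 9 of the 10 genes, in 14 windows. The E-box CACGTG was found in 4 of the 14 windows (Per1, Cry1 and both windows of Tef), the E-prime box CACGTT in 2 (Cry1 and Nr1d1), a D-box (TTATGTAA or TTATGCAA) in 2 (Per1 and Per3) and the ROR element TAGGTCA in 1 (Arntl). Over all 32851 promoter windows of this length, on both strands, these motifs were found in 7.15%, 4.68%, 1.66% and 2.61%. The motifs do not overlap one another in the windows shown. One window is printed for each role in the loop, an activator, a repressor, the receptor that fell at 7 days and an output factor, with the motif letters in capitals and each window read 5′ to 3′ on the strand of its gene. They are Arntl at chr7:113207261-113207560 (plus strand, ROR element 30 bases after the start), Per1 at chr11:69098699-69098998 (plus strand, E-box at -166 and D-box at -24), Nr1d1 at chr11:98775328-98775627 (minus strand, E-prime box at -28, read as AACGTG) and Tef at chr15:81802423-81802722 (plus strand, E-box at -127).
Arntl: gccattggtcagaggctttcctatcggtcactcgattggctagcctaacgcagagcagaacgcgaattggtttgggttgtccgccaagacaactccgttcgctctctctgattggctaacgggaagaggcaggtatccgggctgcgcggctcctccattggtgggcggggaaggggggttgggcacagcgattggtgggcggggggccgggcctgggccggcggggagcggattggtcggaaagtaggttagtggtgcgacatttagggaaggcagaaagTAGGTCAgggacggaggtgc
Per1: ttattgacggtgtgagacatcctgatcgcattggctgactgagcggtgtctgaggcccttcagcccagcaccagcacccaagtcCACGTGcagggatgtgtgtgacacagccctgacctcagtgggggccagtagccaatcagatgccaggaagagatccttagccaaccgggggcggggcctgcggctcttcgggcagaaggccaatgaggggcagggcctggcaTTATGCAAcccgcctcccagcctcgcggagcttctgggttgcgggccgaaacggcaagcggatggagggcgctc
Nr1d1: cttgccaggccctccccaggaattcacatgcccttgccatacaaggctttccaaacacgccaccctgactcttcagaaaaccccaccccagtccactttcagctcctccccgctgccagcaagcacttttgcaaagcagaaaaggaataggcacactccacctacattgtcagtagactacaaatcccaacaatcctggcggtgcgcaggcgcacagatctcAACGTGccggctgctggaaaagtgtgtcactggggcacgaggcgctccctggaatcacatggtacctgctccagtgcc
Tef: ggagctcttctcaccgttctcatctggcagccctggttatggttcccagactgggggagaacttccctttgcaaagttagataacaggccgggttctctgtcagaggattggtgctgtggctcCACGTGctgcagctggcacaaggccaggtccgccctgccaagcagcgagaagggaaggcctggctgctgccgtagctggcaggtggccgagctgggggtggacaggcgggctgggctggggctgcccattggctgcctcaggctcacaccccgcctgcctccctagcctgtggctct

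On mm9, the build of the files, Arntl lies at chr7:120350979-120457636, Clock at chr5:76639992-76733817 and Npas2 at chr1:39250576-39420079. Per1 (chr11:68908719-68923462) and Nr1d1 (chr11:98629246-98636647) share a chromosome, as do Npas2 and Per2 (chr1:93312561-93355907). Per3 lies at chr4:150377761-150418774, Cry1 at chr10:84594447-84647799, Dbp at chr7:52960458-52965525 and Tef at chr15:81632851-81657291. The levels count their exons, of which those of Nr1d1, Dbp and Tef overlap in part with another gene on the other strand.

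Depth ran from 1238353 reads on genes in control liver 4 to 5932823 in 7-day liver 2. Controls had 1238353 to 5485773 reads, 3-day livers 2647303 to 3670369 and 7-day livers 5302354 to 5932823. Hepatocyte markers were present in every liver, with Alb at 234 to 918 eRPKM. Alb was counted at 2417 to 3102 reads whatever the depth, so that its eRPKM was highest in the shallowest library. The YAP target Cyr61 lay between 5.76 and 14.3 eRPKM in controls, between 26.8 and 53.4 at 3 days and between 90.5 and 91.3 at 7 days. By Xist, control livers 2 and 3, 3-day livers 3 and 4 and all 7-day livers were female. The column names of 3-day livers 1 and 4 and of 7-day liver 2 end in MF, a suffix whose meaning is not given in the sources used here.

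In the 4 control livers the members spanned a wide range of levels per length. The mean was 77.6 ± 4.35 eRPKM (SD, n = 4) for Tef, 40.01 ± 9.27 for Dbp and 39.9 ± 9.63 for Nr1d1. Per3 (22.0 ± 6.17), Clock (21.6 ± 2.65), Per2 (15.0 ± 4.07) and Per1 (14.0 ± 4.36) followed, then Cry1 (4.53 ± 1.11), Arntl (0.527 ± 0.113) and Npas2 (0.252 ± 0.0964). Dbp and Nr1d1, Per3 and Clock, and Per2 and Per1 are neighbours whose means differed by less than their SD. Arntl rested on 4 to 69 reads and Npas2 on 1 to 12 reads per liver, so that counting error is large for both.

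**Figure D1:**
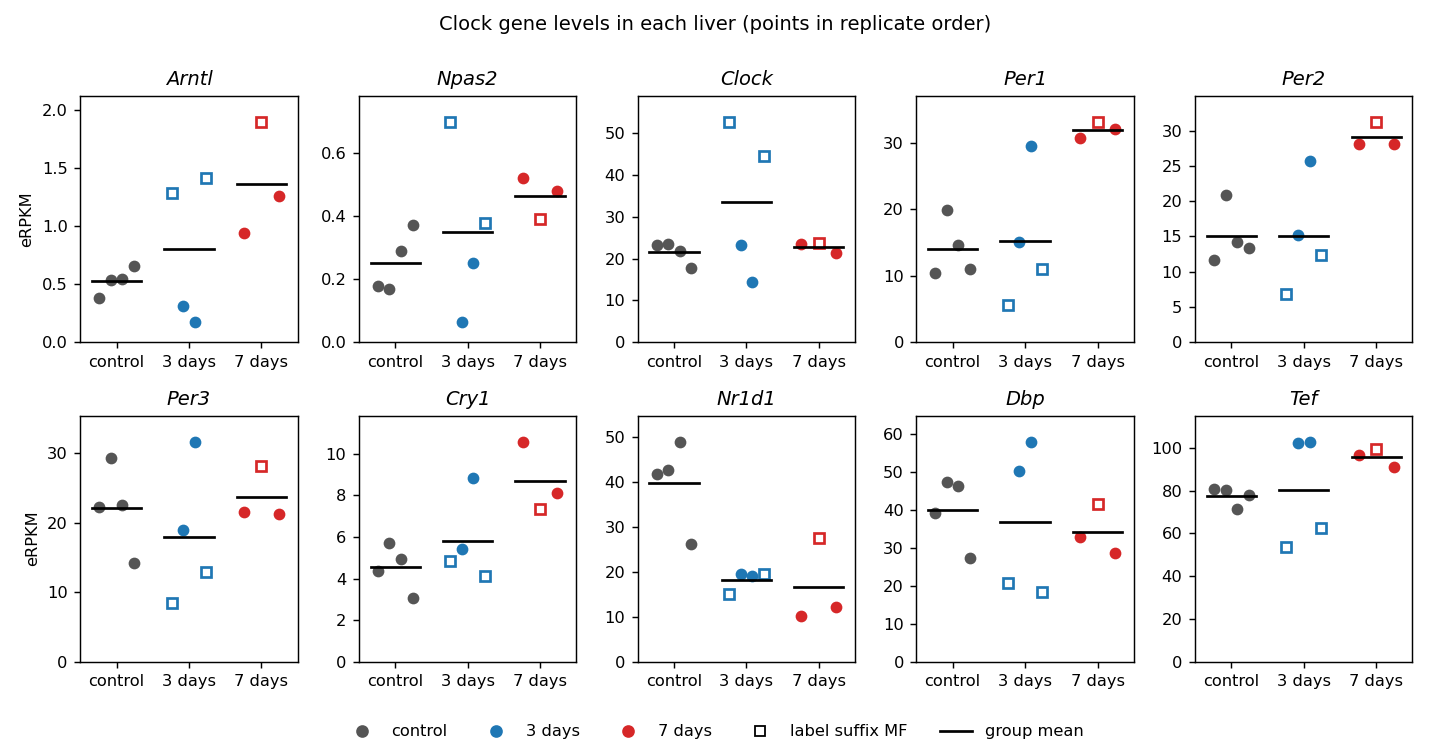
Level of each clock gene (eRPKM, linear axis from 0) in each control, 3-day and 7-day liver, with the group mean as a line and livers whose column name ends in MF as open squares. The 3-day livers with open squares sit above the other two for Arntl, Clock and Npas2 and below them for 6 other members, while all 4 lie between 15.1 and 19.5 for Nr1d1.

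The comparison of induced with control livers asks whether the clock genes moved with YAP. Of the 10 members, 9 reached at least 0.5 eRPKM in at least 3 libraries and were tested within a limma fit of 14244 genes on log2(eRPKM + 0.5), and Npas2 was not. The word called is kept for genes whose log2 fold change exceeded 0.5 in size with a p below 0.01 after Benjamini-Hochberg adjustment. After 3 days none of the 9 members was called, where 0.0421% of all genes tested were called. An unadjusted p under 0.05 was found for 1 of 9 (Nr1d1) and for 1718 of the 14244 genes tested. By limma-voom on recovered reads 0 members were called at 3 days too. After 7 days 1 of 9 (Nr1d1) was called, lower, where 23.8% of all genes tested were called, 18.0% higher and 5.77% lower. Between 7 days and 3 days 0 of 9 were called, against 19.3% of all genes, and voom called 0 there as well. In that comparison 2 of 9 (Per1 and Per2) had an unadjusted p under 0.05, as had 6578 of the 14244 genes tested.

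Nr1d1, the nuclear receptor REV-ERB alpha that represses Arntl, fell after 7 days. Its level was 41.8, 42.6, 48.9 and 26.3 eRPKM in controls 1 to 4. The 3-day livers had 15.1, 19.4, 19.1 and 19.5, and those of 7 days 10.2, 27.4 and 12.2. All 4 livers of the 3-day group lay below every control, while 7-day liver 2 overlapped with control liver 4, which is the shallowest library. The 7-day mean was 16.6 ± 9.42 (SD, n = 3) against 39.9 ± 9.63 (n = 4), a log2 fold change of -1.34 (SE 0.30, limma adjusted p = 0.0037), or 0.396 of control on that scale. After 3 days the mean was 18.3 ± 2.12 (n = 4), a log2 fold change of -1.08 (SE 0.28, adjusted p = 0.12), which was not called. The call at 7 days was lost without control liver 1 (adjusted p = 0.011), control liver 3 (0.012), 7-day liver 1 (0.024) or 7-day liver 3 (0.023), and in female livers only (-1.56, 0.012). Its direction was lower in all 27 alternative settings, from -1.76 to -1.06 on the log2 scale. Several of these settings, such as another threshold or filter or a 3-day liver left out, cannot move this estimate.

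In a whole liver, fewer cells of a type and less RNA per cell cannot be told apart, and other cell markers moved with 7 days as well. The 4 proliferation markers (Mki67, Top2a, Ccna2, Ccnb1) all rose, with a summed level of 93.1 to 149 eRPKM against 4.24 to 18.3 in controls. Of 4 macrophage markers 3 rose (508 to 579 summed, against 142 to 293), and of 6 hepatocyte markers 1 (Ttr) fell, with a sum of 910 to 1020 against 1102 to 3107. The top of the control range is the shallowest library, control liver 4, and the bottom the deepest control, liver 2. Like Alb, Apoa1 was counted at similar reads in every library (1078 to 1496), so that the sum moved with depth. For biliary markers 1 of 5 rose (61.5 to 111, against 37.5 to 49.0), for lymphocyte markers 1 of 4 (4.15 to 7.59, against 2.86 to 5.82), for stellate markers 1 of 4 fell (81.6 to 87.7, against 124 to 165), and 0 of 4 endothelial markers were called (96.3 to 113, against 91.1 to 159). Spp1, not called, made up most of the biliary sum (49.9 to 96.2 at 7 days), and the called gene was Krt7 (1.84 to 2.06). Dcn, not called, made up most of the stellate sum (61.4 to 67.6), and the called gene was Reln (5.13 to 6.04). No marker was at 0 in every liver of a group, and the part of all these cell types in the clock gene levels was not tested. Of the 3124 exon bases of Nr1d1, 263 are shared with Thra on the other strand. The kit and alignment did not use strand, so reads of those bases cannot be assigned. Thra itself lay between 4.94 and 6.48 eRPKM in controls and between 4.83 and 6.39 at 3 days, and reached 6.01 to 10.3 at 7 days.

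Among the Per and Cry members none was called, and the 7-day livers lay above all controls for Per1, Per2 and Cry1 but not for Per3. Per1, a period gene that also answers to hormones and cAMP, was at 10.4, 19.9, 14.6 and 10.99 eRPKM in controls, 5.55, 15.1, 29.4 and 10.96 at 3 days and 30.6, 33.0 and 32.1 at 7 days. Every 7-day liver was above all others, and the log2 fold change of 1.21 against control (SE 0.41) had an adjusted p of 0.033, short of the call. Against 3 days it was 1.27 (SE 0.41, adjusted p = 0.029).

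Per2, its paralog in the repressor complex, was at 11.7, 20.9, 14.2 and 13.3 eRPKM in controls, 6.79, 15.2, 25.6 and 12.4 at 3 days and 28.1, 31.2 and 28.2 at 7 days. Its livers were ordered much as those of Per1, with the 7-day livers above the rest. The log2 fold change at 7 days was 0.97 (SE 0.34, adjusted p = 0.038) against control and 1.08 (SE 0.34, adjusted p = 0.025) against 3 days. Both Per1 and Per2 passed the call when only control and 7-day livers entered the fit (adjusted p = 0.0015 and 0.0030). In that fit, which called 3798 of the 14244 genes tested, the spread of the 3-day livers does not enter the error. With log2 depth as a covariate Per1 was at 0.79 (adjusted p = 0.30) and Per2 at 0.63 (0.31), and in female livers only at 0.89 (0.092) and 0.74 (0.096).

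Cry1, a cryptochrome that holds the repressor complex together, was at 4.38, 5.73, 4.94 and 3.09 eRPKM in controls, 4.83, 5.41, 8.83 and 4.11 at 3 days and 10.6, 7.36 and 8.12 at 7 days. The 7-day livers lay above all controls, and the log2 fold change of 0.88 (SE 0.28, adjusted p = 0.024) was not called. Over the 27 alternative settings the Cry1 value ran from 0.26 to 1.04, with limma adjusted p from 0.0077 to 0.36. Control liver 4 held 12 reads of Cry1. Per3, the paralog whose protein is the least needed for the rhythm, ordered the 3-day livers as Per1 and Per2 did. It was at 22.2, 29.2, 22.4 and 14.2 eRPKM in controls, 8.41, 18.9, 31.6 and 12.9 at 3 days and 21.6, 28.2 and 21.3 at 7 days, with 7-day livers that overlapped with controls and a log2 fold change of 0.13 (SE 0.36) at 7 days whose sign was turned by the scaling (-0.13 with median-ratio size factors and -0.14 after quantile normalization).

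The activators were not called in any comparison. Arntl was at 0.377, 0.534, 0.543 and 0.653 eRPKM in controls, 1.29, 0.315, 0.177 and 1.42 at 3 days and 0.945, 1.89 and 1.26 at 7 days. Its 7-day livers lay above all controls (log2 fold change 0.84, SE 0.37, adjusted p = 0.095), while the 3-day livers fell on both sides of them. Clock, its partner, was at 23.3, 23.5, 21.8 and 17.8 in controls, 52.6, 23.3, 14.3 and 44.5 at 3 days and 23.6, 23.7 and 21.2 at 7 days. The 7-day livers overlapped with controls and the 3-day livers held both the highest and the lowest values. Npas2, which can stand in for Clock, was at 0.179, 0.169, 0.289 and 0.371 in controls, 0.697, 0.064, 0.252 and 0.378 at 3 days and 0.520, 0.390 and 0.481 at 7 days.

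The output factors of the PAR-bZIP family, which carry the rhythm to metabolic genes, were not called either. Dbp was at 39.0, 47.4, 46.4 and 27.3 eRPKM in controls, 20.6, 50.2, 57.8 and 18.2 at 3 days and 32.7, 41.4 and 28.5 at 7 days, with log2 fold changes of -0.27 (SE 0.34) and -0.21 (SE 0.37) against control. Tef was at 80.6, 80.5, 71.3 and 78.1 in controls, 53.8, 102, 103 and 62.6 at 3 days and 96.7, 99.6 and 91.0 at 7 days. Its 7-day livers were above all controls by a small margin (log2 fold change 0.30, SE 0.21, adjusted p = 0.28, and 0.03 with median-ratio size factors). Exons of Dbp share 491 bases with Sphk2 and those of Tef 193 bases with Gm17597, both on the other strand. In all, 6 of 10 members (Npas2, not tested, among them) had 7-day livers that did not overlap with controls. The same was so for 50.0% of all genes tested. At 3 days the groups did not overlap for 1 of 10 members and 5.64% of genes. Between 7 and 3 days 2 of 10 members and 45.1% of genes did not overlap.

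**Figure D2:**
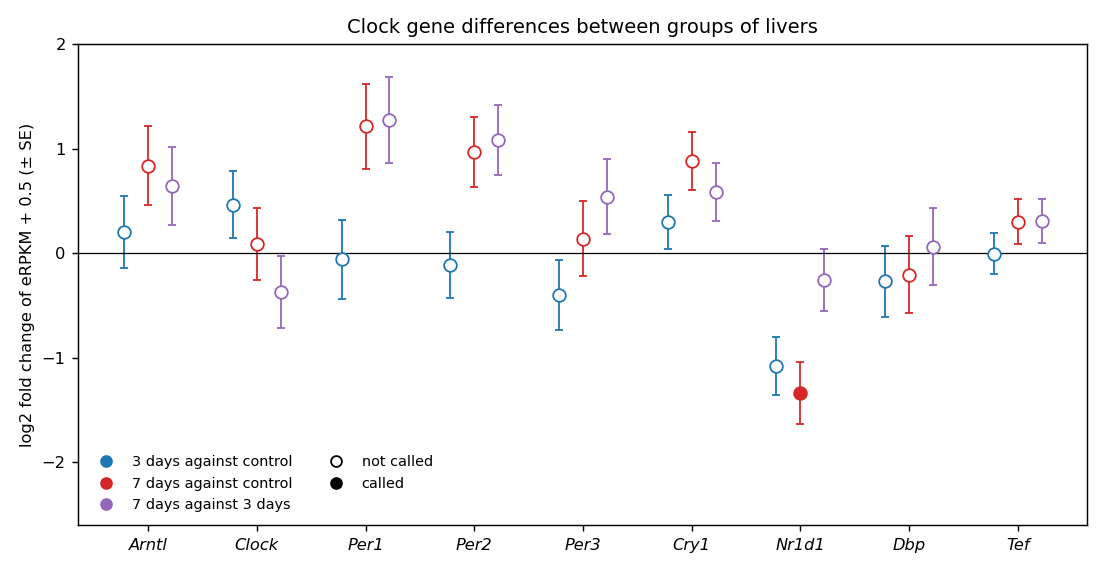
Log2 fold change of eRPKM + 0.5 with its standard error (limma) for the 9 clock genes tested, in 3 comparisons between groups, with filled points for called genes. Nr1d1 after 7 days (-1.34) is the only filled point, and Per1 (1.21) and Per2 (0.97) are the highest at 7 days against control.

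Over all genes tested the median log2 fold change at 7 days was 0.26 against control, with 2561 genes called higher and 822 lower (1951 and 1254 with median-ratio size factors, 1857 and 1821 after quantile normalization). Relative to that median the 7-day difference was -1.60 for Nr1d1, 0.95 for Per1, 0.71 for Per2, 0.62 for Cry1 and 0.04 for Tef. The members had a median of 0.30 at 7 days and -0.06 at 3 days, where all genes had 0.02. Group means of each member were also compared by exact permutation, two-sided, in 30 tests, which left no adjusted p below 0.17, and the smallest p it allows for 4 livers against 4 is 0.029.

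Most members were spread widest among the 3-day livers. The SD of log2(eRPKM + 0.5) in the 3-day livers was 0.96 for Per1, 0.85 for Clock and Dbp, 0.79 for Per3, 0.77 for Arntl and 0.76 for Per2, against a median of 0.34 over all genes tested. In controls these genes had SDs of 0.42, 0.18, 0.36, 0.42, 0.16 and 0.35 in that order, where the median gene had 0.32. Nr1d1 went the other way, with an SD of 0.17 at 3 days and 0.74 at 7 days. Set against genes within 0.5 log2 units of the same mean level, the residual SD of Per1 was at the 95.9th percentile, those of Dbp, Per3, Clock and Per2 at 95.7, 93.7, 93.2 and 90.9, and that of Cry1 at 51.9.

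The 3-day spread followed the suffix in the column names. Livers 1 and 4, whose names end in MF, held more Arntl (1.29 and 1.42 against 0.315 and 0.177 eRPKM in livers 2 and 3), more Clock (52.6 and 44.5 against 23.3 and 14.3) and more Npas2. The same livers held less Dbp (20.6 and 18.2 against 50.2 and 57.8), less Per1, Per2, Per3 and Cry1, and less Tef (53.8 and 62.6 against 102 and 103). In 9 of 10 members (8 of the 9 tested) the 2 pairs of livers did not overlap and differed by more than 0.5 on the log2 scale. They did so in 32.1% of all genes tested. The exception was Nr1d1, at 15.1 and 19.5 against 19.4 and 19.1. The absolute log2 difference between the pairs had a median of 1.13 over the members and 0.37 over all genes tested, and with 2 livers a side no test was made. In the 7-day group liver 2, which also carries the suffix, held the most Arntl and Clock and the least Cry1 of its group, the directions of the suffix at 3 days. It also held the most Dbp, Tef, Per1, Per2 and Per3 and the least Npas2, the opposite directions, and the most Nr1d1.

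**Figure D3:**
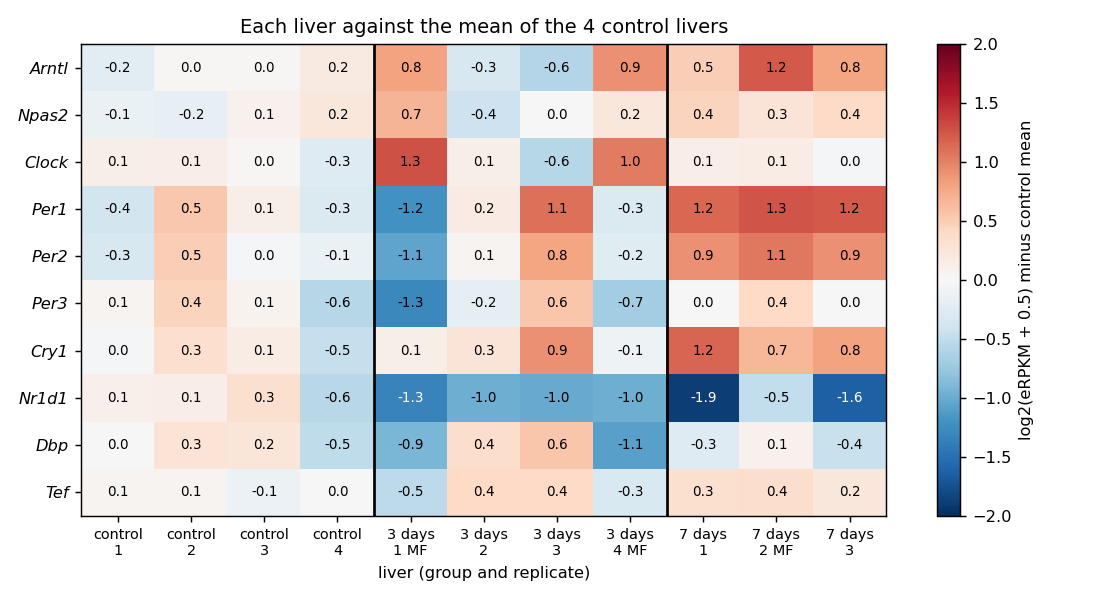
Difference of each liver from the mean of the 4 control livers in log2(eRPKM + 0.5), with genes as rows, livers as columns and red above and blue below the control mean. In 3-day livers 1 and 4 Arntl, Npas2 and Clock are red and Dbp, Tef and the Per genes blue, in 3-day liver 3 Arntl and Clock are blue and Dbp, Tef and the Per genes red, and Nr1d1 is blue in all 7 induced livers.

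Other measures moved with the same pairs of 3-day livers. Cyr61 was at 26.8 and 27.5 eRPKM in livers 1 and 4 against 48.3 and 53.4 in livers 2 and 3, and Ctgf, another YAP target, at 15.3 and 15.5 against 31.3 and 34.2. The 4 proliferation markers summed to 13.4 and 36.7 against 67.8 and 98.4, the 4 stellate markers to 234 and 207 against 119 and 108, and the 4 endothelial markers to 148 and 193 against 106 and 109. Clec4g made up most of the endothelial sum (57.6 to 127 at 3 days, beside 18.4 to 23.2 for Kdr). The pairs overlapped in the sums of hepatocyte (1661 and 1354 against 1405 and 1343), biliary (84.5 and 64.8 against 75.2 and 40.5) and macrophage markers (162 and 313 against 201 and 210). Lymphocyte markers overlapped as well. Depth was 2647303 and 3666908 reads against 3614721 and 3670369, and each pair held 1 male and 1 female liver by Xist. The suffix, the strength of YAP target induction and the clock gene levels cannot be told apart in 4 livers, and the hour of sampling was not tested.

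A clock index was formed by averaging Arntl and Npas2 on the log2(eRPKM + 0.5) scale and subtracting the average of Dbp and Per3, which peak at opposite times in mouse liver. It was -5.28, -5.50, -5.18 and -4.33 in controls, -3.23, -5.53, -5.92 and -3.61 at 3 days and -4.48, -4.57 and -4.26 at 7 days. The 3-day livers thus held the 2 highest and the 2 lowest values of all 11, and the 7-day livers lay at the upper end of the controls, 2 of them within the control range and liver 3 just above control liver 4. The group means were -5.07 ± 0.51 (SD, n = 4), -4.57 ± 1.35 (n = 4) and -4.44 ± 0.16 (n = 3), and all 3 pairs of groups overlapped. In the same 7-day livers Per1, Per2 and Cry1 were above all controls while Per3 and Dbp were not.

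**Figure D4:**
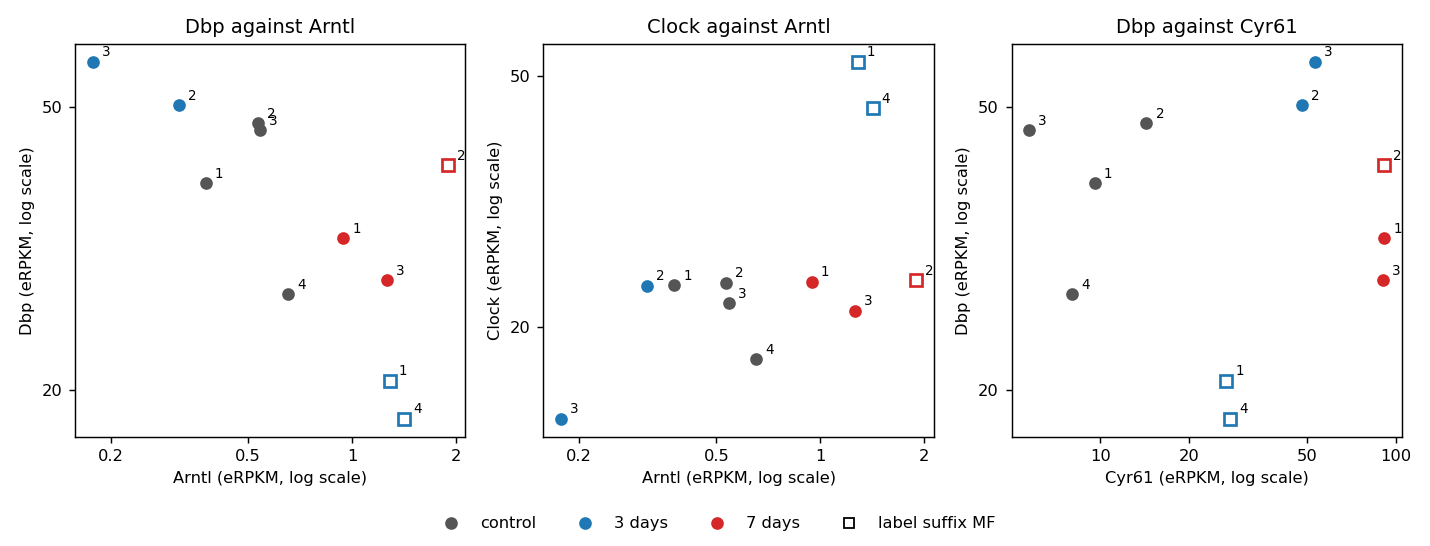
Dbp against Arntl, Clock against Arntl, and Dbp against the YAP target Cyr61, each in eRPKM on log axes, with 1 point per liver numbered by replicate and open squares for names ending in MF. The 3-day livers lie at both ends of the Dbp axis and in 2 places on the Arntl axis, livers 1 and 4 at 1.29 and 1.42 and livers 2 and 3 at 0.315 and 0.177, the highest Arntl being that of 7-day liver 2 at 1.89, while the 7-day livers share a Cyr61 level of 90.5 to 91.3 and span 28.5 to 41.4 of Dbp.

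Leaving out 3-day livers 1 and 4, which was tried once the values were known, turned the 3-day log2 fold change from positive to negative for Arntl (-0.46) and Clock (-0.23) and from negative to positive for Per1 (0.63), Per2 (0.42), Per3 (0.19), Dbp (0.46) and Tef (0.40), none of them called. Nr1d1 stayed at -0.997 (adjusted p = 0.22). In the same fit Per1 and Per2 passed the call at 7 days against control beside Nr1d1 (adjusted p = 0.0030 and 0.0047). That fit called 4042 of the 14244 genes tested at 7 days against control. Across the 11 livers, with each group centred on its mean, none of the 9 other members passed the exact test of correlation with Arntl after adjustment (lowest adjusted p = 0.078, for Cry1). In the 7 control and 7-day livers alone none passed either (adjusted p = 0.91 for each by the same test). The coefficients there were -0.29 for Clock, -0.02 for Npas2, 0.19 for Per1, 0.30 for Per2, 0.10 for Per3 and -0.59 for Cry1. They were 0.57 for Nr1d1, 0.15 for Dbp and 0.08 for Tef. Over all 11 livers Clock had 0.83, Dbp -0.79 and Tef -0.85, and the split of the 3-day livers into 2 pairs enters these values.

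By the same centred levels, the genes most like Arntl among 12569 genes with a mean of at least 1 eRPKM were 2900060B14Rik (Pearson r 0.97 over 11 livers), Rnf128 (0.97), Gm4952 (0.97), Ppp2r5a (0.96) and Cnpy2 (0.96). The most opposite were Farp2 (-0.98), 1810010H24Rik (-0.97), Anxa11 (-0.97), Slc25a37 (-0.97) and Ndc1 (-0.97). The points share their libraries, the split of the 3-day livers enters every coefficient, the spread of Arntl was widest at 3 days, and the coefficients are given as a description.

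The wider clock network was read from a list of 17 further genes, 16 of them tested. After 7 days 3 of 16 rose and 3 fell (23.8% of all genes were called), and at 3 days none was called (voom called 0). At 3 days 2 of 16 had an unadjusted p under 0.05, as had 1718 of the 14244 genes tested. Nr1d2, the paralog of Nr1d1, lay between 79.8 and 96.2 eRPKM in controls, between 71.7 and 93.5 at 3 days and between 49.2 and 52.7 at 7 days. All 7-day livers lay below all others, and the fall of 0.77 on the log2 scale (SE 0.13, adjusted p = 0.00067) was kept in all 27 alternatives. At 3 days Nr1d2 overlapped with controls, where Nr1d1 did not, though the difference between the paralogs was not tested.

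Casein kinases phosphorylate the PER proteins and set their stability. Csnk1d lay between 16.9 and 21.4 eRPKM in controls, between 16.2 and 23.7 at 3 days and between 32.6 and 39.4 at 7 days, and Csnk1e at 2.62 to 3.92, 1.73 to 3.09 and 6.83 to 10.3. Both rose at 7 days, with log2 fold changes of 0.86 (SE 0.16, adjusted p = 0.0013) and 1.36 (SE 0.25, adjusted p = 0.0010). Csnk1d lost its call with log2 depth as a covariate (adjusted p = 0.020) and without 7-day liver 3 (0.011), and Csnk1e in female livers (0.019) and after quantile normalization (0.030).

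Fbxl21, an F-box protein that acts on the cryptochromes, fell from between 1.48 and 6.24 eRPKM in controls to between 0.553 and 0.767 at 7 days (log2 fold change -1.88, SE 0.37, adjusted p = 0.0017). Bhlhe41 (Dec2), a repressor that competes at the E-box, fell from between 3.69 and 6.83 in controls to 0, 2.64 and 0.129 at 7 days (-2.54, SE 0.60, adjusted p = 0.0054), where the size depends on the pseudocount. Timeless rose from between 2.14 and 3.75 in controls to between 13.1 and 19.7 at 7 days (2.16, SE 0.52, adjusted p = 0.0059), and was at 1.17, 4.71, 13.3 and 3.00 in the 3-day livers. Timeless is also known as a replication fork protein, and the proliferation markers rose in the same livers. The calls of Bhlhe41 and Timeless were lost in 8 and 12 of 27 alternatives.

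Among 13 tested rhythmic outputs of the liver clock, 3 rose and 5 fell after 7 days, where 18.0% of all genes tested were called higher and 5.77% lower. At 3 days none was called (voom called 0). An unadjusted p under 0.05 was then found for 5 (Cdkn1a, Gys2, Nampt, Tspan4 and Upp2) and for 1718 of the 14244 genes tested. The 5 outputs that fell at 7 days act in metabolism. Cyp7a1, the rate-limiting enzyme of bile acid synthesis, went from between 62.5 and 179 eRPKM in controls to between 10.9 and 15.1 (log2 fold change -3.09, SE 0.30, adjusted p = 1.2e-05). Upp2, a liver uridine phosphorylase, went from between 114 and 248 to between 5.44 and 9.77 (-4.21, SE 0.26, adjusted p = 5.9e-07), and Gys2, the liver glycogen synthase, from between 94.0 and 126 to between 19.9 and 26.9 (-2.18, SE 0.22, adjusted p = 1.9e-05). Lpin1 (-1.79) and Elovl3 (-5.56) also fell, and Elovl3, a fatty acid elongase, was at 0, 0.347 and 0 eRPKM at 7 days after 65.9, 10.04, 9.44 and 89.6 in controls 1 to 4, with the male livers high. All 7-day livers were female, and Elovl3 kept its call in female livers only but lost it with depth as a covariate and by voom.

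The outputs that rose were Cdkn1a (4.07, SE 0.45, adjusted p = 3.1e-05), the cell cycle inhibitor p21 that NR1D1 is known to repress, Cirbp (1.17, SE 0.29, adjusted p = 0.0070), a cold-inducible RNA-binding protein, and Tspan4 (0.998, SE 0.18, adjusted p = 0.00079), a tetraspanin. Tspan4 was already higher by 0.98 at 3 days (SE 0.16, limma adjusted p = 0.026), short of the call. Wee1, Usp2, Por, Nampt and Alas1, known outputs of the clock in liver, were not called. Wee1, a kinase that holds back mitosis, was at 9.98 to 15.5 eRPKM in controls, 4.58, 22.2, 26.4 and 7.78 in 3-day livers 1 to 4 and 22.9 to 26.9 at 7 days. Its 3-day livers thus split by the suffix as Dbp did, and 32.1% of all genes tested split by more than 0.5 on the log2 scale. The list had a median log2 fold change of -0.16 at 7 days and the other clock genes 0.10, beside 0.26 over all genes tested. Cirbp and Lpin1 each lost the call in 10 of 27 alternatives.

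**Figure D5:**
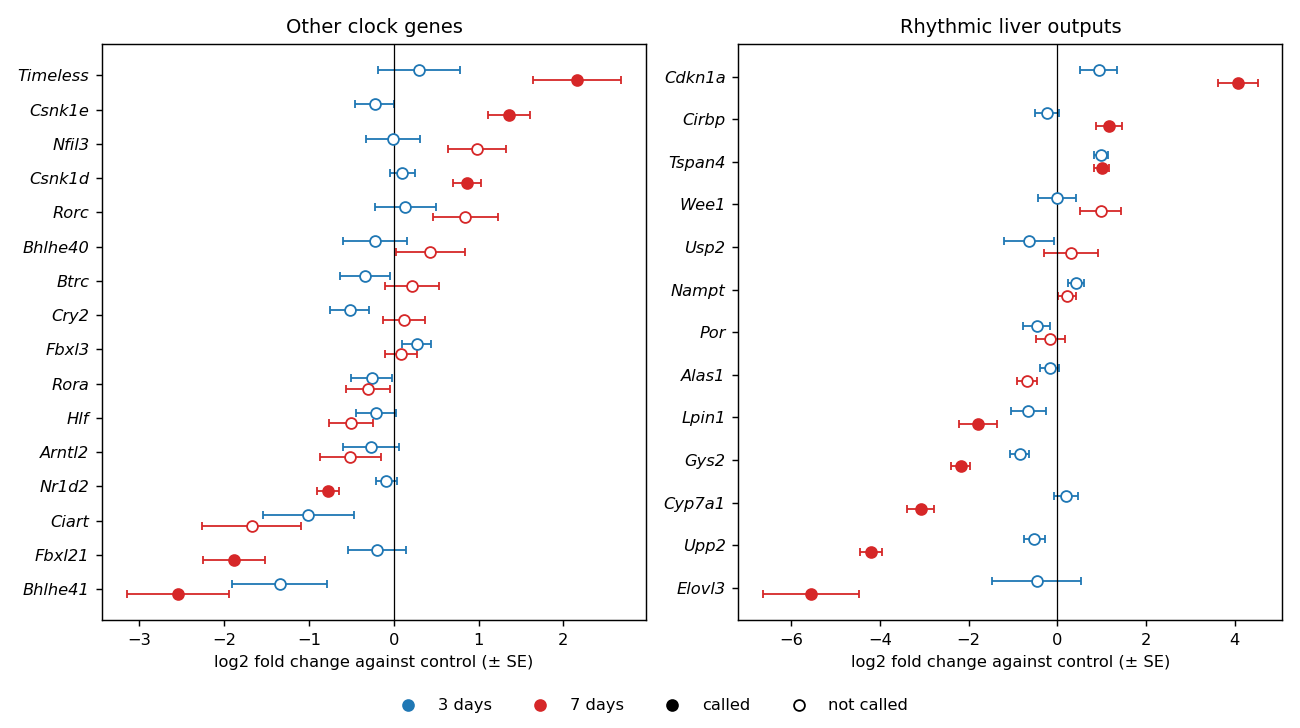
Log2 fold change against control with its standard error (limma on eRPKM + 0.5) after 3 and 7 days for 16 other clock genes and 13 rhythmic outputs of liver, ordered by the 7-day value, with filled points for called genes. No 3-day point is filled, and the 7-day points run from -2.54 (Bhlhe41) to 2.16 (Timeless) in the left panel and from -5.56 (Elovl3) to 4.07 (Cdkn1a) in the right.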

How the data were processed

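Total RNA of 11 mouse livers was sequenced with an unstranded TruSeq v2 kit, 1 library per liver. According to the study's methods and the submitters' processing notes, low-quality bases were masked, read pairs were aligned to mm9 with TopHat 2.0.8 without strand, and featureCounts 1.4.5-p1 and SAMtools were used. The authors deposited 1 RPKM value per gene and liver (eRPKM). Columns holding a mean, fold change and adjusted p-value of 7-day against WT livers from DESeq2 were not used. Livers were grouped by their labels, which do not name animals, so that p-values measure only the spread between these samples.

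limma 3.58.1 in R 4.3.3 (lmFit, eBayes with trend) was run on log2(eRPKM + 0.5) over 14244 genes that reached 0.5 eRPKM in 3 or more libraries, with all 11 livers in 1 fit and Benjamini-Hochberg adjustment. Fold changes on this scale understate the change of low genes. Whole reads were recovered from the steps of the values for 20892 of 20893 genes to within 0.1 read, which gave depths of 1238353 to 5932823 reads per liver and allowed limma-voom as an alternative. The scripts were tested on simulated data. Exact two-sided permutation tests enumerated every split of the livers, and correlations with Arntl every order within groups (3456) in place of the random draws planned. The clock index is given without the planned test. The remaining steps ran in Python 3.11.15, with pandas 2.3.3 and numpy 2.4.6 for tables, scipy 1.17.1 for tests and matplotlib 3.10.9 for figures.

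Named genes are the clock genes, the called members of the other lists, the 5 genes most and least like Arntl, Xist and a Y-linked gene, and Cyr61 and Ctgf. Thra and the outputs named as not called were added after their values were seen. The members and the lists were chosen with earlier results of these data known. Promoters come from RefSeq on GRCm38.p6. Alternatives were other pseudocounts, filters, scalings, covariates, subsets and tests. Per2 was not matched in the promoter table. One gene of the rhythmic output list is not reported here.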

Additional observations from a re-analysis of the deposited data

Results flagged for a closer look

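Nr1d1 in 3-day liver 1 stood apart from its group, at 15.1 eRPKM where the other 3 livers lay between 19.1 and 19.5. The gap was 0.909 of the range of the group, past the 95% limit of Dixon's test for 4 samples. Of 22 groups of 4 livers examined this was the 1 past the limit, where chance alone gives about 1 in 20.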

How the results depend on the processing

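Of the clock gene values, 652 kept direction and side of the threshold, 16 passed it, 5 lost it and 53 changed sign, 1 choice being changed at a time. For a change of sign the cause was not tested. The suffix covariate, the fit without 3-day livers 1 and 4 and voom were chosen after the values were seen. Arntl and Npas2 are limited by depth. edgeR and DESeq2 were not run because the deposited values are RPKM.

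At 7 days against control 1 clock gene was called. The number was 4 at an adjusted p under 0.05, 3 with only the 2 groups in the fit, with the suffix covariate or without 3-day livers 1 and 4, 0 in female livers and 0 to 3 on leaving out each liver. It was 0 without control liver 1 or 3 or 7-day liver 1 or 3, 3 without 3-day liver 1 and 2 without 3-day liver 3. Over all 14244 genes, 5390 were called at an adjusted p under 0.05 and 3798 with only the 2 groups in the fit. The suffix covariate gave 3914 and the fit without 3-day livers 1 and 4 gave 4042, where the main fit called 3383. At 7 against 3 days 0 were called, 2 at an adjusted p under 0.05 and 0 to 2 on leaving out each liver (2 without 3-day liver 3). With Arntl 0 passed, and 0 to 1 on leaving out each liver (1, Cry1, without control liver 1). Other clock genes called at 7 days numbered 6, and 3 in female livers or with depth as a covariate (3 to 6 on leaving out each liver, 3 without 7-day liver 3). For rhythmic outputs they numbered 8, and 4 with depth (6 to 8). At 3 days outputs numbered 0, and 1 at an adjusted p under 0.05, with Xist or without 3-day livers 1 and 4 (0 to 1, 1 without 3-day liver 1). Glucocorticoid genes numbered 5 at 7 days, and 3 with size factors, the replicate block or depth (2 to 6).

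Over all genes 6 were called at 3 days, 41 at an adjusted p under 0.05, 3 with no filter or the block, 12 with size factors, 0 with 2 groups, 16 with Xist, 1 with depth or voom, 110 with the clock index, 10 with the suffix and 93 without 3-day livers 1 and 4 (0 to 54 on leaving out each liver). At 7 days 3383 were called against control and 2753 against 3 days. These became 5390 and 5085 at an adjusted p under 0.05, 2128 and 1424 in female livers, 1676 and 1680 with depth and 5125 and 4491 with the clock index, with 1460 against 3 days without 3-day livers 1 and 4. On leaving out each liver they ran from 2057 to 3684 and from 1412 to 3683.

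At 3 days against control the sign turned without 3-day livers 1 and 4 for Arntl (-0.46), Clock (-0.23), Per1 (0.63), Per2 (0.42), Per3 (0.19), Dbp (0.46) and Tef (0.40). It turned with the suffix covariate for Arntl (-0.31), Per1 (0.34), Per2 (0.18), Dbp (0.080) and Tef (0.22), and in female livers for Per1 (0.080), Per2 (0.047) and Tef (0.082). At 7 days it turned for Clock with size factors (-0.18), quantile normalization (-0.19) and the suffix (-0.20), and for Dbp with the suffix (0.025). For Per3 it turned with size factors (-0.13), quantile (-0.14), the replicate block (-0.011), Xist (-0.061), female livers (-0.12) and depth (-0.41). Between 7 and 3 days it turned for Dbp with size factors (-0.18), the block (-0.16), Xist (-0.017), depth (-0.23), the suffix (-0.055) and without 3-day livers 1 and 4 (-0.66). In that last fit Clock (0.31), Per3 (-0.056) and Tef (-0.097) turned as well, and Cry1 did with quantile normalization (-0.017). The coefficient with Arntl turned for Nr1d1 with quantile normalization (-0.036) and without 3-day livers 1 and 4 for Npas2 (-0.21), Per2 (0.027), Dbp (0.082) and Tef (0.068).

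On leaving out each liver in turn, the 3-day value ran from -0.038 to 0.46 for Arntl, -0.45 to 0.32 for Per1, -0.41 to 0.20 for Per2, -0.54 to 0.0018 for Dbp and -0.14 to 0.16 for Tef. The 7-day value ran from -0.0017 to 0.14 for Clock and -0.057 to 0.28 for Per3. Between 7 and 3 days it ran from -0.68 to 0.015 for Nr1d1 and -0.21 to 0.34 for Dbp, and the coefficient of Nr1d1 with Arntl from -0.255 to 0.28. Replicate numbers did not pair the livers (correlations of deviations from -0.222 to 0.269), and with the replicate block Nr1d1 stayed called at 7 days (-1.41, limma adjusted p = 0.0042), 1 clock gene in all.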

Other observations

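Glucocorticoid hormones follow the day and act on Per1 directly, so 7 of their response genes were read from the same limma fit. After 3 days 0 of 7 were called (voom called 0), with an unadjusted p under 0.05 for Klf9 alone and for 1718 of the 14244 genes tested. After 7 days 3 rose and 2 fell, where 18.0% of all genes tested were called higher and 5.77% lower, with a list median of 1.37 on the log2 scale beside 0.26 over all genes tested. Dusp1, a phosphatase of MAP kinases, rose from between 14.4 and 42.8 eRPKM in controls to between 102 and 138 at 7 days (log2 fold change 2.36, SE 0.40, adjusted p = 0.00058). Sgk1, a kinase induced by steroids and by serum, rose from between 10.7 and 26.2 in controls to between 40.02 and 52.2 at 7 days (1.60, SE 0.25, adjusted p = 0.00038), and Fkbp5, a chaperone of the receptor, from between 11.2 and 32.4 to between 56.0 and 62.3 (1.51, SE 0.37, adjusted p = 0.0068). Klf9, a zinc finger factor, fell from between 68.0 and 91.3 to between 43.2 and 53.5 (-0.79, SE 0.15, adjusted p = 0.0016), and Tat, the tyrosine aminotransferase of hepatocytes, from between 206 and 431 to between 134 and 153 (-0.88, SE 0.22, adjusted p = 0.0073). The list thus held genes that moved in both directions. The calls of Tat and Fkbp5 were lost in 17 and 8 of 27 alternatives and that of Klf9 in 1. The log2 fold change of Tat ran from -1.14 to -0.25 over these alternatives. Its highest control value is that of control liver 4, the shallowest library, and the other controls lay between 206 and 241. Tat was counted at 1321 to 2777 reads per liver.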
